A study of Caenorhabditis elegans with 18 samples.

Results

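The messenger RNAs of cytosolic ribosomal proteins were followed across 4 groups of wild-type Caenorhabditis elegans, an intact nematode in which all tissues contribute to the RNA. Members were the probe sets, each a set of short array probes for a transcript, whose annotated gene symbol starts with rpl- (large subunit), rps- (small subunit) or rla- (stalk). The rule found 114 of the 22625 probe sets on the array, for 77 of the 18217 genes named on it, of which 47 are rpl and 30 are rps genes. No symbol began with rla-, because the stalk proteins carry the symbol rplp in the annotation. A symbol with the rpl-, rps- or rla- start is given to 78 genes in RefSeq's table for this worm, and rpl-18A was the 1 of them without a probe set here. After a filter on low signal 112 member probe sets were tested among 13529.

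A ribosome joins a small subunit, which reads the messenger RNA, and a large subunit, which forms the peptide bond. Each subunit is a core of ribosomal RNA decorated with many proteins, most of them present once per ribosome, so their synthesis is held in proportion. Their messenger RNAs are among the most abundant in growing cells and fall as a group, in many organisms, when growth signals through the TOR kinase decline. In worms, lowering the synthesis of ribosomal proteins has been linked to slower growth and longer life.

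The strain was N2 and worms were kept at 20 °C on nematode growth medium with Escherichia coli OP50 as food. The control group (n = 5) had no agent. The H2O2 group (n = 5) received 0.3 mM hydrogen peroxide, an oxidant, for 2 h at the L4 larval stage. The TRF group (n = 4) was given a tocotrienol-rich fraction of vitamin E for its whole life. The TRF+H2O2+TRF group (n = 4) received that fraction from hatching to day 3 of adulthood with a peroxide exposure in between, for which the labels do not repeat the dose. Whether each replicate came from its own culture is not stated in the labels, and the p-values therefore reflect nothing beyond the variation among these samples, which may be technical.

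The values were MAS5 signals, linear brightness values scaled on each array to a common trimmed mean of about 500.1, and every level and difference below is on the scale of log2(signal + 1) unless it is called a signal. With 1 array per sample the number of arrays limits the precision. The ubiquitin 3′ to 5′ signal ratio, a sign of RNA and labelling quality, ran from 8.02 to 15.5 over the 18 arrays, with medians of 10.9 in control, 14.003 in H2O2, 12.6 in TRF+H2O2+TRF and 10.4 in TRF. In whole worms fewer cells of a type and less RNA per cell cannot be told apart.

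Ribosomal protein probe sets lay near the top of the array's brightness range. Of the 114, 109 had a geometric mean signal over 5000, from 7174 to 21375, and the members made up 28 of the 50, 64 of the 100 and 99 of the 200 brightest probe sets. Brightness depends on each probe's binding as well as on the transcript, so no order of abundance among the genes was read from it. On single arrays the members carried between 9.42% (control replicate 1) and 12.2% (H2O2 replicates 2 and 3) of the summed signal.

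Because the members are so bright, they were set beside the 116 other tested probe sets in the same brightness range, between the lowest and highest decile of the members (mean log2 13.32 to 14.17). Of these 116, 15 belong to translation genes, and leaving them out moved the medians given below by at most 0.01. The comparison with other bright probe sets is a description, without a test.

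Dimmer probe sets made up the other 5 members. A probe set of rpl-42, a protein near the transfer RNA exit site, had signals of 4.01, 3.88, 4.26, 32.8 and 14.6 on the control arrays and 33.8, 21.2, 24.4, 9.76 and 33.2 on the H2O2 arrays, below the filter and without an order among the groups. A further rpl-8 probe set (178408_at) was below the filter too. The dim probe sets of rpl-12 (175191_at), rps-18 (171959_x_at) and rps-20 (171976_x_at) were tested, while each of these 3 genes also has a bright probe set.

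The members were high or low together from array to array. The mean over the 112 tested members was 13.55, 13.85, 13.87, 13.74 and 13.53 on control arrays 1 to 5, and 13.70, 14.03, 14.02, 13.80 and 13.75 on the H2O2 arrays 1 to 5. On arrays 1 to 4 it was 13.64, 13.71, 13.62 and 13.73 in TRF+H2O2+TRF and 13.67, 13.75, 13.65 and 13.66 in TRF. The group means were 13.86 ± 0.156 in H2O2 (SD, n = 5), 13.71 ± 0.161 in control (n = 5), 13.68 ± 0.0464 in TRF (n = 4) and 13.67 ± 0.0534 in TRF+H2O2+TRF (n = 4). Neighbours in this order lay within 1 SD of each other when the arrays were taken as unpaired, and the differences within pairs of H2O2 and control arrays are given with that comparison, while the control arrays alone spanned the range of both TRF groups.

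**Figure D1:**
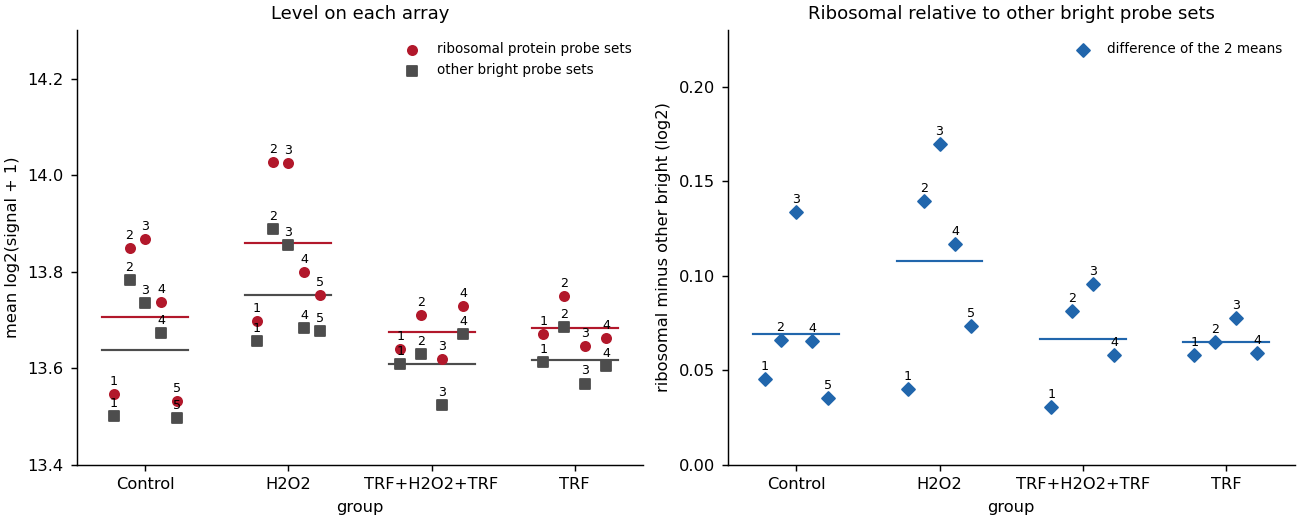
Left, the mean log2(signal + 1) on each array of the 112 ribosomal protein probe sets (red circles) and of the 116 other bright probe sets (grey squares), with lines at the group means and replicate numbers beside the points. Right, the difference between both means on each array, which ran from 0.03 to 0.17. H2O2 arrays 2 and 3 and control arrays 2 and 3 are the highest on the left, and control arrays 1 and 5 the lowest.

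The array-wide movement was shared with other bright probe sets. H2O2 arrays 2 and 3 and control arrays 2 and 3 had the 4 highest member means, and the same 4 arrays had the 4 lowest medians over all tested probe sets (8.46, 8.53, 8.56 and 8.60). The ubiquitin 3′ to 5′ ratio on them was 14.1 and 14.003 in H2O2 and 15.5 and 14.2 in control, while control arrays 1 and 5, with the lowest member means, had 10.9 and 9.61. Ratios as high occurred on arrays with middling member means, among them H2O2 replicate 1 (14.8), TRF+H2O2+TRF replicate 2 (14.9) and TRF replicate 2 (14.8). The part of RNA quality in the member levels was not tested. Among the 109 bright members, one offset per array equal to the members' own mean removed 65.0% of the variance within groups, and an offset taken from the other bright probe sets removed 59.8%. The median SD of a member over the 18 arrays was 0.16, and it was 0.09 once each array was centred on the median of the other bright probe sets.

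Members differed in how much they varied. By each gene's brightest probe set, the largest SDs over the 18 arrays were those of rpl-23A.1 (0.24), a protein at the exit of the peptide tunnel, rpl-11.2 (0.22), which sits with the 5S RNA, rps-9 (0.22), and rps-3A (0.20). The smallest were those of rpl-22 (0.11), rpl-37A (0.12), rpl-39 (0.12), which lines the tunnel, and rpl-10a (0.13), part of the mobile L1 stalk.

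The first comparison of the series design asked what peroxide alone changed against untreated worms. Nearly all ribosomal protein transcripts had a slightly higher mean after H2O2, 111 of 112 against a background of 49.5% of all probe sets, and no single one passed the test. The median difference was 0.16, or 11.5%, where the median over all tested probe sets was 0.00. Other bright probe sets were higher too, in 110 of 116, with a median of 0.12, or 8.89%. Both subunits were alike, with medians of 0.15 over 67 large-subunit and 0.16 over 45 small-subunit probe sets.

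Large-subunit proteins gave several of the smallest p-values. For rpl-18 (193571_at) signals were 13275, 15382, 15127, 15082 and 14299.7 in control and 16012, 19343, 18923, 15488.5 and 16460.2 in H2O2. The lowest H2O2 array was above the highest control array, and this rpl-18 probe set was the single member whose groups did not overlap in this direction, against 0.259% of all probe sets. Its difference was 0.23 ± 0.0875 (SE), with an adjusted p of 1.00 in limma's test over all 13529 probe sets. The gene's other and brighter probe set (171798_x_at), which can also bind related transcripts, had 14288, 16652, 18742, 15867 and 13691.5 in control and 15353, 19867, 19592, 16843 and 16585 in H2O2. Those groups overlapped, and the difference was 0.16 ± 0.106 (SE, limma adjusted p = 1.00).

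For rpl-14 (188181_at) the signals were 10806, 13686, 12679.8, 12704 and 10486 in control and 15679.5, 15765, 16572, 12710.0 and 12788 in H2O2. The 3 highest H2O2 arrays stood above every control array and the other 2 within the control range. Its difference was 0.28 ± 0.108 (SE, limma adjusted p = 1.00).

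For rpl-7A (176904_s_at), signals in control were 13838, 15621, 16961.5, 15755 and 13664 and in H2O2 18529, 19140.4, 18146, 15388.5 and 17629. Replicate 4 of H2O2 overlapped the control range and the other 4 lay above it. The difference was 0.23 ± 0.0898 (SE, limma adjusted p = 1.00). Differences of 0.27 for rpl-21 and 0.23 for rpl-6 had overlapping groups.

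Small-subunit members near the top were rps-26 (0.25), a protein of the messenger RNA exit, and rps-5 (0.23), which lines the exit channel. The dim rps-18 probe set (171959_x_at) had the largest difference of all members, 0.44 ± 0.145, with signals of 564, 623, 659, 571 and 491 in control and 708, 849, 805, 966 and 643 in H2O2. The bright rps-18 probe set (192736_at) gave 0.02 ± 0.103, so both readings of this head protein differed by 0.43. This was the widest disagreement among the 31 genes with more than 1 tested probe set, and none of the 31 had probe sets of opposite sign here.

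The 1 member with a lower mean after H2O2 was rpl-41.1 (194196_x_at), one of a pair of genes for a very small basic peptide of the large subunit. Its signals were 6732, 7897, 8667, 7692 and 6403 in control and 6359, 7738, 8313, 7549 and 6645 in H2O2, which overlap throughout, and its difference was -0.03 ± 0.110. The paralog and neighbouring gene rpl-41.2 (171920_x_at) gave 0.15 ± 0.0998. Both probe sets carry a suffix for probes that can bind related transcripts, so these genes are not cleanly separated.

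**Figure D2:**
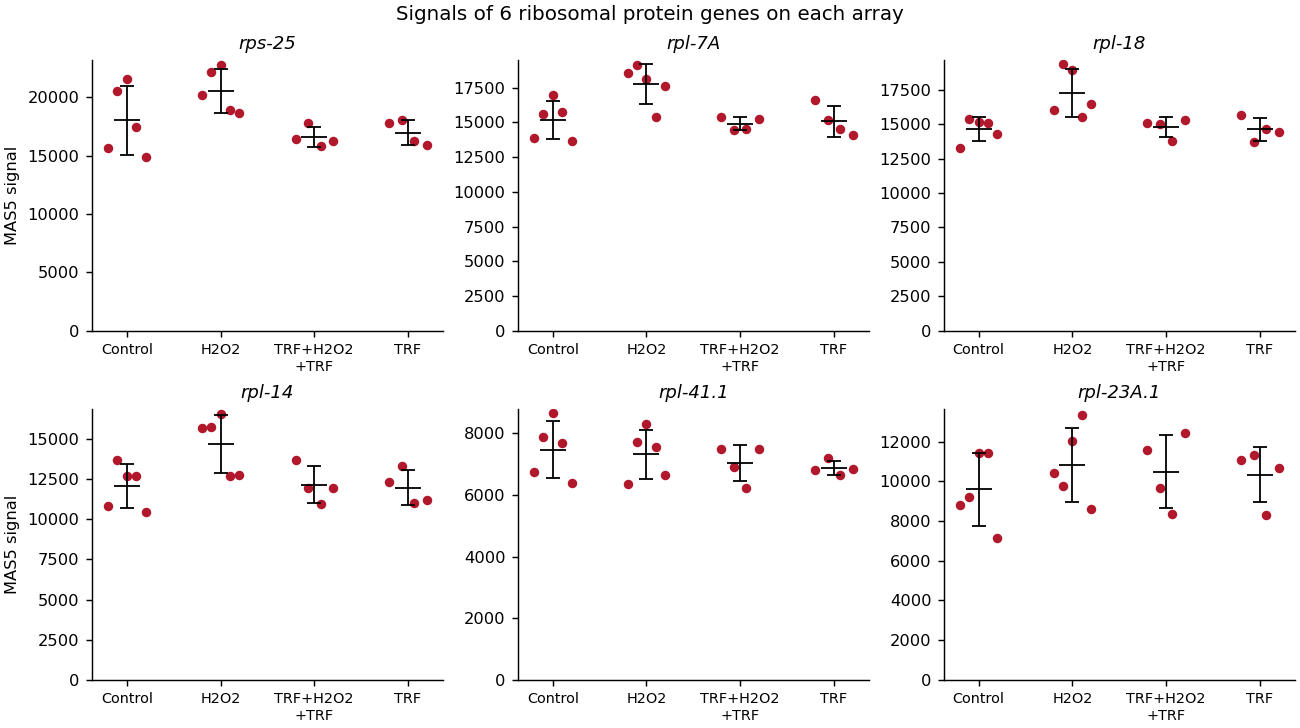
MAS5 signals on each array (red points) with the group mean and SD (black) for rps-25, rpl-7A, rpl-18, rpl-14, rpl-41.1 and rpl-23A.1, on axes that start at 0. Each gene is drawn from the probe set whose values the text gives, for rpl-18 the one without overlap. For rpl-18 the H2O2 arrays lie above all control arrays, for rps-25 they lie above all TRF+H2O2+TRF arrays, and for rpl-41.1 the groups overlap.

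Limma's test called 0 members (0% of all probe sets) at an adjusted p under 0.05, and 12 of 112 had an unadjusted p under 0.05 in the higher direction, against 1.39% of all probe sets and 4 of the 116 other bright ones. The methods' t-test gave 8 at an unadjusted p under 0.05 (background 2.96%) and 0 after Benjamini-Hochberg adjustment. The count of 12 rested on single arrays. Without control replicate 1 it was 1, without control replicate 5 or H2O2 replicate 3 it was 2, without H2O2 replicate 2 it was 3 and without control replicate 4 it was 7. It was 21 without control replicate 3, 23 without control replicate 2 and 25 without H2O2 replicate 1, while the median stayed between 0.11 and 0.20. Over all 13529 probe sets, in either direction, the count was 317 with every array and ran from 294 to 465 in the fits just named.

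Replicate numbers paired the H2O2 and control arrays, and the block on these numbers raised the count. The member mean was higher in H2O2 for every number, by 0.15, 0.18, 0.16, 0.06 and 0.22 for numbers 1 to 5, and the other bright probe sets by 0.16, 0.11, 0.12, 0.01 and 0.18. With the number as a block 79 of 112 members had an unadjusted p under 0.05 and a higher mean (background 5.7%), as did 51 of the 116 other bright probe sets. The smallest adjusted p of a member in that blocked limma fit was 0.184, for rps-26, so 0 were called, as were 0 of all 13529 probe sets.

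Centring each array on the other bright probe sets took away most of the difference. The members' median was then 0.05, with 90 of 112 higher. The median over all tested probe sets moved to -0.11, since centring takes the same offset from every probe set of an array and leaves the gap between members and all probe sets unchanged by construction. Unadjusted p under 0.05 was left for 10 members in the higher direction (background 0.451%), rpl-14 and rpl-18 among them, and for 0 of the other bright probe sets, which the centring itself used. With block and centring together, a setting chosen after seeing the data, the count was 10 again (background 1.83%). Under quantile normalization the median was 0.01, with 67 of 112 higher.

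At the bright end, brightness and difference went together well beyond the ribosome. In bands of mean log2 signal 1 unit wide, the medians of all other probe sets were -0.03 between 8 and 9, 0.03 between 12 and 13, 0.10 between 13 and 14 and 0.14 between 14 and 15. The dim bands were above 0 too, at 0.09 between 5 and 6, 0.06 between 6 and 7 and 0.02 between 7 and 8. Members had medians of 0.14 in the band from 13 to 14 (68 probe sets) and 0.17 in the band from 14 to 15 (38 probe sets), 0.04 and 0.03 above the others of their band.

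**Figure D3:**
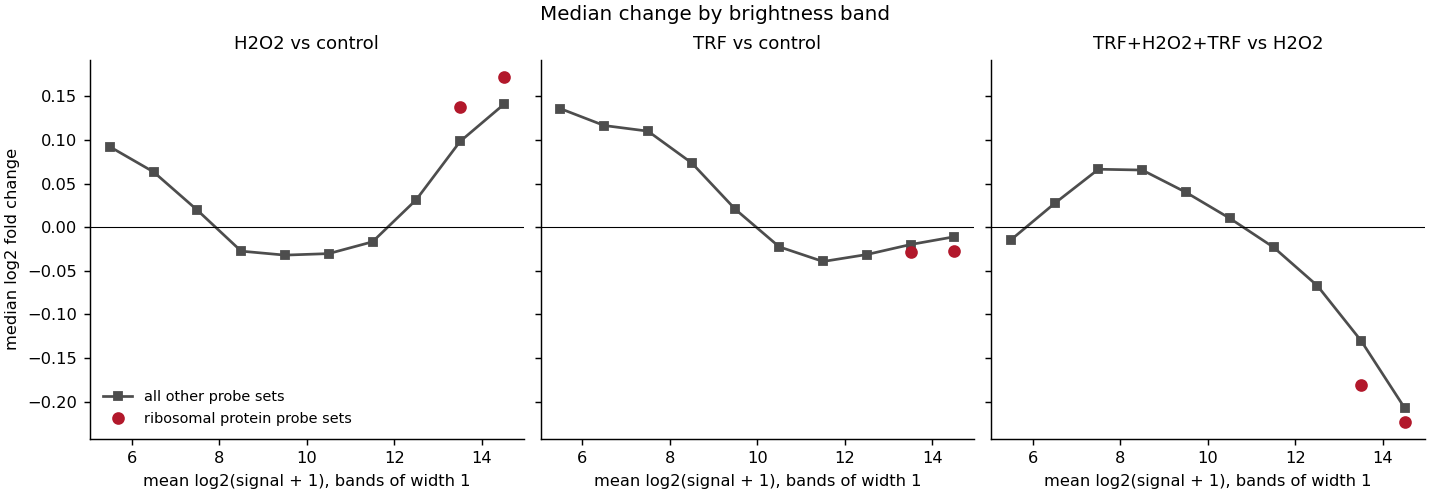
Median log2 fold change against mean log2(signal + 1) in bands 1 unit wide, for all other probe sets (grey line) and for ribosomal protein probe sets in the bands that hold at least 20 of them (red), in the 3 comparisons of the series design. In H2O2 against control both curves climb at the bright end, to 0.14 and 0.17, and in TRF+H2O2+TRF against H2O2 both descend, to -0.21 and -0.22. In TRF against control the other probe sets fall from 0.14 between 5 and 6 to -0.04 between 11 and 12. They lie at -0.01 between 14 and 15. The median over the 112 ribosomal protein probe sets in that comparison, -0.03, becomes 0.01 when arrays are centred on the other bright probe sets.

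Summed signals of tissue markers had overlapping ranges in these groups for every list. The 8 body wall muscle markers summed to 17450 to 25845 in control and 24705 to 33512 in H2O2, the 6 intestine markers to 53713 to 68047 and 63491 to 75381, and the 13 germline and oocyte markers to 78727 to 90302 and 74639 to 98461. All of these markers had a probe set, as did 15 of 18 sperm markers (1704 to 12364 and 1420 to 10014), 6 of 6 neuron markers (1721 to 2727 and 1736 to 2686) and 4 of 5 cuticle markers (16688 to 23341 and 19503 to 25528). Median sums in control and H2O2 were 19950 and 26527 for muscle, 64142 and 67800 for intestine and 79812 and 89633 for germline. They were 17752 and 22649 for cuticle, 7849 and 5963 for sperm and 2157 and 1964 for neurons. Probe sets of asp-1, vit-2, cpr-1, cpg-1, cpg-2, pos-1 and col-119 from these lists are among the 116 other bright ones. The part of these tissues in the ribosomal protein differences was not tested.

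In the second comparison, TRF alone against control, ribosomal protein transcripts were close to level. Of 112 members 91 had a lower mean (background 42.4%), with a median of -0.03, or -1.86%, and 66 of the 116 other bright probe sets were lower with a median of -0.01. Limma called 0 members (background 0.00739%), none of the 112 had an unadjusted p under 0.05 in either direction (background 2.12% higher and 1.38% lower), and the methods' t-test gave 0 as well (background 4.15%). The sign and size were not stable. The median was -0.07 without control replicate 1, when 102 members were lower, and -0.07 without control replicate 5, when 106 were lower. It was -0.05 without TRF replicate 2 and -0.02 without TRF replicate 3. The median was 0.01 without control replicate 2, when 38 members were lower, and 0.01 without control replicate 3, when 42 were lower, and it was also 0.01 after centring on the other bright probe sets and after cyclic loess.

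The members with the smallest p in this comparison included rpl-41.1. Its TRF signals were 6819, 7205, 6642 and 6852, within the control range given above, and its difference was -0.11 ± 0.0976. Differences were -0.07 for rpl-15, -0.06 for rpl-29, -0.08 for rps-19 and -0.09 for the bright rps-18 probe set (limma adjusted p = 0.995 for each). On the higher side was rpl-23A.1 (193097_s_at), with signals of 11091, 11323, 8294 and 10657.5 in TRF and 8797, 9193, 11417, 11448 and 7137 in control and a difference of 0.12 ± 0.145. Its paralog rpl-23A.2 gave -0.02, rpl-6 gave 0.05 and rps-10 gave 0.07. Opposite signs between probe sets of one gene occurred in 11 of 31 genes. Among them were rps-10 (lowest -0.02), rpl-15 (highest 0.02) and rps-18 (highest 0.18).

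The third comparison set worms given TRF around the peroxide against worms given peroxide alone, and here the set as a whole was lower. Of 112 members 111 had a lower mean (background 45.3%), with a median of -0.19, or -12.4%, against 0.02 over all tested probe sets. Among the other bright probe sets 113 of 116 were lower, with a median of -0.14, or -9.52%. The large-subunit median was -0.19 and the small-subunit median -0.21. This comparison uses the same H2O2 arrays as the first, so the 2 are not independent.

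Small-subunit proteins led by p-value. For rps-25 (189778_s_at), a protein of the subunit head, signals were 20206, 22141, 22799, 18908.5 and 18628 in H2O2 and 16465, 17821, 15821 and 16216 in TRF+H2O2+TRF. All 4 arrays of the latter were below the lowest H2O2 array. The difference was -0.31 ± 0.0859 (SE), with an adjusted p of 1.00 in limma.

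For rps-29 (174300_s_at), which binds zinc, signals were 13398, 16915, 13976, 14420.3 and 14473 in H2O2 and 11708.5, 11628.5, 11223 and 13267 in TRF+H2O2+TRF. Replicate 4 of TRF+H2O2+TRF came closest, just below the lowest H2O2 array, and the groups did not overlap. The difference was -0.29 ± 0.0919 (SE, limma adjusted p = 1.00). Another small-subunit protein, rps-6, whose C-terminal tail is phosphorylated by S6 kinase, gave -0.26 ± 0.0861 without overlap.

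Among large-subunit proteins rpl-8 (190162_at), which lies next to the peptidyl transferase centre, had signals of 19928, 23987, 24946, 19838 and 20061 in H2O2 and 18270.0, 17906, 17143 and 17791 in TRF+H2O2+TRF. These groups were also separate, with a difference of -0.28 ± 0.0902. Another bright probe set (174080_s_at), annotated to rpl-8 and to B0250.3, had 15046, 21643, 21216, 18200 and 22203 in H2O2. It had 16721, 16787, 22308 and 20472 in TRF+H2O2+TRF, so its groups overlapped. Its highest signal was in TRF+H2O2+TRF and its lowest in H2O2, so both bright readings of rpl-8 were not alike. The rpl-15 difference was -0.24 ± 0.0804, without overlap. For rpl-7A the 4 TRF+H2O2+TRF signals were 15407, 14484, 14516.5 and 15229.9, and its highest value just passed the lowest H2O2 value of 15389, with a difference of -0.25 ± 0.0832.

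The 1 tested member with a higher mean was the dim rps-20 probe set (171976_x_at), which had 1643, 1807, 1723 and 1947 in TRF+H2O2+TRF and 1695, 1941, 1899, 1742 and 1369 in H2O2, a difference of 0.05 ± 0.134. The bright rps-20 probe set (176041_s_at) gave -0.11 ± 0.112, and rps-20 was the single gene of 31 with probe sets of opposite sign here. The dim rps-18 probe set had the widest difference, -0.53 ± 0.192, where its bright probe set had -0.05 ± 0.106.

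Limma called 0 members (0% of all probe sets). An unadjusted p under 0.05 in the lower direction was seen for 42 of 112 (background 1.14%), against 19 of the 116 other bright probe sets. The methods' t-test gave 40 at an unadjusted p under 0.05 (background 2.71%) and 0 after adjustment. Groups did not overlap for 27 members (background 0.599%) and for 5 other bright probe sets. The count of 42 was 11 without TRF+H2O2+TRF replicate 3, 12 without H2O2 replicate 3, 14 without H2O2 replicate 2, 25 without TRF+H2O2+TRF replicate 1, 26 without TRF+H2O2+TRF replicate 2 and 75 without H2O2 replicate 1. Over all 13529 probe sets, in either direction, it was 302 with every array. In the fits just named it was 388, 183, 229, 188, 272 and 567, in the same order. The count of 27 was 45 without H2O2 replicate 1 (background 1.33%). It was between 27 and 36 without any other array (background 0.717% to 1.43%). Leaving out an array cannot lower a count of groups without overlap, so these counts say nothing of its stability. The median stayed between -0.23 and -0.15.

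After each array was centred on the other bright probe sets, little of this separation was left. The members' median was -0.04, with 83 of 112 lower, while the median over all tested probe sets became 0.17. Unadjusted p under 0.05 remained in the lower direction for 4 members (background 0.111%). These were rps-25, rpl-8 (190162_at), rps-6 and a probe set of rpl-31, the last named after its value was seen. Groups did not overlap for 3 members (background 0.0665%) and for 0 of the other bright probe sets. Under quantile normalization the median was -0.01, with 62 of 112 lower.

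At the bright end the slope over brightness ran the other way from that of peroxide alone. The bands from 5 to 6 and from 6 to 7 had medians of -0.01 and 0.03 over probe sets that are not members. Other probe sets had medians of 0.07 between 8 and 9, -0.07 between 12 and 13, -0.13 between 13 and 14 and -0.21 between 14 and 15, where the members had -0.18 and -0.22 in the last 2 bands. The 8 body wall muscle markers summed to 19849 to 30609 in TRF+H2O2+TRF, the 6 intestine markers to 58808 to 64607 and the 13 germline and oocyte markers to 72625 to 87729, beside the H2O2 ranges given above. The 15 sperm, 6 neuron and 4 cuticle markers summed to 1861 to 8317, 1657 to 2886 and 17078 to 21910. Their part in the lower member means was not tested.

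**Figure D4:**
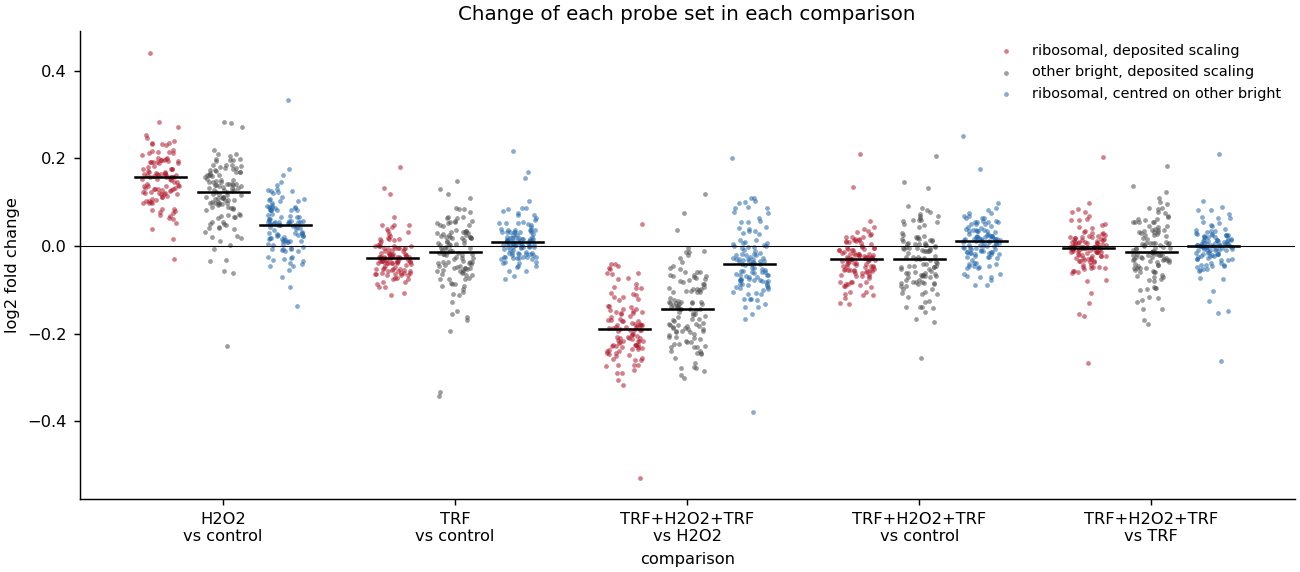
Log2 fold change of each probe set in the 5 comparisons of 2 groups, for the 112 ribosomal protein probe sets (red), the 116 other bright probe sets (grey) and the ribosomal protein probe sets after each array was centred on the other bright ones (blue), with black lines at the medians. The red medians are 0.16 in the first comparison and -0.19 in the third, and become 0.05 and -0.04 after centring. The medians of the other 3 comparisons lie within 0.03 of 0, and centring turns the sign of those in TRF against control and in TRF+H2O2+TRF against control.

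Set directly against untreated worms, the TRF+H2O2+TRF group had ribosomal protein levels near those of control. Of 112 members 89 had a lower mean (background 45.5%), with a median of -0.03, as had 77 of the 116 other bright probe sets with a median of -0.03. Limma called 0 members (0% of all probe sets) and 0 had an unadjusted p under 0.05 (background 1.9% higher and 0.939% lower). The methods' t-test gave 1 (background 3.28%) before adjustment and 0 after it. The median was -0.07 without control replicate 1 and -0.08 without control replicate 5, each with 103 members lower, -0.05 without TRF+H2O2+TRF replicate 4 and -0.01 without TRF+H2O2+TRF replicate 3. It was 0.00 without control replicate 2, when 54 members were lower, 0.01 without control replicate 3, when 43 were lower, and 0.01 after centring on the other bright probe sets.

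The genes with the smallest p here were rps-29 (-0.13), rpl-19 (-0.11), which reaches across to the small subunit, and rpl-29 (-0.11), while rpl-23A.1 (0.13), rpl-28 (0.03) and rpl-6 (0.03) were on the higher side. The dim rps-20 probe set was the 1 member without overlap in the higher direction (background 0.54%), with control signals of 1539, 1575, 1626, 1525 and 1425. Its difference was 0.21 against -0.00 for the bright rps-20 probe set.

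In TRF+H2O2+TRF against TRF, which sets peroxide against none in worms given TRF, the members had no common direction. The labels word the TRF schedule of these groups differently, so peroxide and schedule cannot be told apart here. Of 112 members 66 were lower (background 53.5%), with a median of -0.01, and 67 of the 116 other bright probe sets were lower with a median of -0.01. Limma called 0 members (0% of all probe sets), with 0 at an unadjusted p under 0.05 (background 0.887% higher and 0.577% lower). The methods' t-test gave 1 (background 1.86%) before adjustment and 0 after it. The median was 0.02 without TRF replicate 2, when 32 members were lower, 0.02 without TRF+H2O2+TRF replicate 3, when 40 were lower, and 0.00 without TRF+H2O2+TRF replicate 1. It was -0.02 without TRF replicate 3, when 78 were lower, -0.02 without TRF+H2O2+TRF replicate 4, when 79 were lower, and -0.01 without TRF+H2O2+TRF replicate 2, TRF replicate 1 or TRF replicate 4, when 74, 69 and 69 were lower.

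Replicate numbers also paired these 2 groups, and with the block 2 members, rps-29 and rps-10, had an unadjusted p under 0.05 in the lower direction (background 3.18%). The rps-29 difference was -0.13 ± 0.0501 in that blocked limma fit, with an adjusted p of 0.749. Without the block the 3 smallest p-values were those of rps-29 (-0.13), rps-10 (-0.15) and its neighbouring gene rpl-24 (-0.11), which forms a bridge between the subunits. The 3 probe sets of rps-10 ran from -0.15 to 0.005, so they differed in sign. On the higher side were rps-13 (0.08), rpl-10a (0.06) and rps-8 (0.05), and 22 of 31 genes had probe sets of opposite sign.

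The interaction asks whether the difference between groups with and without peroxide was the same with and without TRF, fitted over all 18 arrays. Both TRF groups also differ in the schedule on their labels, and the peroxide dose is not repeated for TRF+H2O2+TRF. Schedule and dose thus cannot be told apart from an interaction. The interaction was below 0 for 107 of 112 members (background 52.2%), with a median of -0.17, and for 110 of 116 other bright probe sets, with a median of -0.12. Limma called 0 members (0% of all probe sets). In the lower direction 2 members had an unadjusted p under 0.05 (background 0.673%), against 4 of the other bright probe sets. These 2 were rpl-7A (-0.24) and the dim rps-18 probe set (-0.71). The next smallest p-values were those of rps-29 (-0.29) and rpl-6 (-0.26). After centring on the other bright probe sets the median was -0.05, while that of all tested probe sets became 0.10.

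That count of 2 was 13 without control replicate 2, control replicate 3 or H2O2 replicate 1, 10 without H2O2 replicate 4 and 4 without TRF replicate 3. It was 1 without control replicate 1, control replicate 5, H2O2 replicate 2, H2O2 replicate 3 or TRF+H2O2+TRF replicate 3. Over all 13529 probe sets, in either direction, the count was 154 with every array and ran from 152 to 221 in the fits just named. Members with an interaction above 0 included rpl-41.1 (0.06) and the bright rps-18 probe set (0.04).

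The paralog pairs showed no shared pattern apart from the other members. The rpl-11 genes, whose protein sits with the 5S RNA, gave 0.13 for rpl-11.1 and 0.08 for rpl-11.2 after H2O2, and -0.16 and -0.11 in TRF+H2O2+TRF against H2O2. The rpl-23A genes gave 0.18 and 0.19 after H2O2, and -0.05 for rpl-23A.1 and -0.27 for rpl-23A.2 in the third comparison. Their probe sets can share probes, so none of these differences between paralogs was read as one between genes.

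Proteins of the ribosome that carry other symbols had differences of similar size. The list held the acidic stalk proteins rplp-0, rplp-1, rplp-2.1 and rplp-2.2, which recruit elongation factors, rpsa-1, rack-1, a signalling scaffold on the small subunit, and ubq-2 and fau-1, made as fusions to ubiquitin or a like protein. The rplp genes, rpsa-1 and fau-1 were added to it after the table had been seen. After H2O2 7 of 8 had a higher mean, with a median of 0.14 and 0 called, and in TRF+H2O2+TRF against H2O2 8 of 8 were lower, with a median of -0.22, 0 called and 4 at an unadjusted p under 0.05. Of all tested probe sets 0% were called in either comparison. Higher means after H2O2 made up 49.5% of all tested probe sets and were seen in 110 of the 116 other bright ones. In the third comparison lower means made up 45.3% of all and 113 of the 116, and a lower mean with an unadjusted p under 0.05 made up 1.14% of all and 19 of the 116. The probe sets of rplp-0, rplp-1, rplp-2.1, fau-1, rack-1 and ubq-2 are themselves among the 116.

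For rack-1 (192868_at) the signals ran from 11648 to 16197 in control, 13444 to 17972 in H2O2, 12207 to 13584 in TRF+H2O2+TRF and 12871 to 13879 in TRF, with differences of 0.16 after H2O2 and -0.24 in the third comparison. For ubq-2 (193821_at) they ran from 9068 to 10962, 10152 to 11875, 9574 to 10784 and 9628 to 10425, with differences of 0.14 and -0.07. The brightest rpsa-1 probe set (172946_s_at), the one counted, was the 1 of 8 without a higher mean after H2O2, at -0.00, and gave -0.06 in the third comparison. A second bright rpsa-1 probe set (192558_s_at) gave 0.18 and -0.22, so the readings of this gene disagree.

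Genes that build or serve the ribosome, and mitochondrial ribosomal proteins, had medians from -0.07 to 0.02 in these comparisons. By the median of each list, their probe sets were much dimmer than the members. Median signals were 962 for assembly genes, 3707 for translation factors and 1115 for mitochondrial ribosomal proteins. In the brightness bands that hold these signals, from 9 to 12, the medians of all probe sets that are not members were -0.03, -0.03 and -0.02 after H2O2 and 0.04, 0.01 and -0.02 in the third comparison. Of 29 tested genes for ribosome assembly and ribosomal RNA synthesis 12 were higher and 17 lower after H2O2 (median -0.01), and 18 were higher and 11 lower in TRF+H2O2+TRF against H2O2 (median 0.01). Among them fib-1, a methyltransferase of ribosomal RNA, gave 0.15 and -0.26. These were the highest value of the list after H2O2 and its lowest in the third comparison, so fib-1 does not stand for the list. In TRF against control 22 of the 29 were higher (median 0.08), as were 57.6% of all tested probe sets. In TRF+H2O2+TRF against TRF 25 of the 29 were lower (median -0.08), as were 53.5% of all. Of 26 translation factors 15 were higher after H2O2 (median 0.02), and 13 were higher and 13 lower in the third comparison (median -0.00). In the latter iff-1 (-0.30), eef-1G (-0.23) and eef-1A.1 (-0.22) had an unadjusted p under 0.05. The probe sets read for iff-1 and eef-1G are among the 116 other bright ones, as is a further eef-1A.1 probe set (-0.20). In that comparison 113 of these 116 were lower, 19 of them at an unadjusted p under 0.05.

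Mitochondrial ribosomal proteins, which serve the separate ribosome of the mitochondrion, were higher in 32 and lower in 25 of 57 after H2O2 (median 0.01). In TRF+H2O2+TRF against H2O2 13 were higher and 44 lower (median -0.07), where 45.3% of all tested probe sets were lower. No gene of these 3 lists was called by limma in either comparison, with 0 at an unadjusted p under 0.05 after H2O2 and 1 assembly gene, 3 factors and 0 mitochondrial proteins in the third.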

How the data were processed

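The deposited values are intensity values, MAS5 signals on a linear scale, which the authors made with the Affymetrix Expression Console, per the submitters' processing notes (versions and genome build not given in the sources used here). Gene symbols came from the platform annotation, updated through RefSeq's gene table. Of 114 member probe sets 111 had 1 symbol and 3 had several; 32 genes had over 1 probe set. Without the array's 77 control probe sets, 22548 were left, and those 13529 whose mean log2 signal reached the 40th percentile (geometric mean signal 47.0) were tested. Signals were used as log2(signal + 1) with no further normalization.

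Groups and replicate numbers came from the sample titles. Comparisons were fitted over all tested probe sets, using only the arrays of both groups, in limma 3.58.1 under R 4.3.3 (eBayes with a variance trend, two-sided, Benjamini-Hochberg adjusted p under 0.05), which was tested on simulated data. The interaction used all 18 arrays. The series design names 3 of the comparisons and an unpaired test at p under 0.05, given here as the methods' t-test. Errors are SEs from limma unless marked SD, and a difference subtracts the second group named from the first. Background percentages are shares of all tested probe sets.

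Genes were read from their brightest probe set, and those named were the 6 with the smallest p in each comparison of the series design, the 3 in the others, up to 3 of opposite sign, the 4 largest and 4 smallest SDs, paralogs, and members below the filter. The members, lists and rules were chosen with earlier results of these data known, and single members named for groups that do not overlap or for a dim probe set were chosen after their values were seen. Residuals of equal replicate numbers correlated at 0.280 to 0.681 for H2O2 and control (best match in 5 of 5) and 0.350 to 0.686 for TRF+H2O2+TRF and TRF (4 of 4), so these numbers were taken to pair the arrays; the labels do not say what they mark. Alternatives changed the filter, scaling, pseudocount, variance model, weights, arrays, block and choice of probe sets.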

Additional observations from a re-analysis of the deposited data

Results flagged for a closer look

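Of 140 sets of arrays checked, each 1 named gene in 1 group, 3 held an array far from the others of its group, and chance gives about 1 in 20. The rpl-29 signal was 11378.5 on H2O2 replicate 1, the lowest of that group. For rpl-10a the highest TRF+H2O2+TRF signal was 16651.7, on replicate 4. The rpl-15 signal of 18183.3 on TRF replicate 2 was the highest of that group.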

How the results depend on the processing

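Across 22 to 29 other settings per comparison 0 ribosomal protein probe sets passed an adjusted p under 0.05, the methods' t-test included. Of all tested probe sets at most 4 passed in any of these settings. The median for TRF+H2O2+TRF against H2O2 was -0.00815 under quantile normalization, -0.0403 with arrays centred on the other bright probe sets and -0.0439 after cyclic loess, and the interaction median was -0.0014 under quantile normalization; the cause was not tested.

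Leaving out 1 array at a time gave medians of 0.108 to 0.200 for H2O2 against control, -0.0698 to 0.0122 for TRF against control, -0.231 to -0.149 for TRF+H2O2+TRF against H2O2, -0.0753 to 0.00608 against control, -0.0209 to 0.0164 against TRF, and -0.205 to -0.118 for the interaction.

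With the replicate number as a block the medians were 0.157 for H2O2 against control, -0.0672 for TRF against control, -0.216 for TRF+H2O2+TRF against H2O2, -0.0753 against control and -0.00545 against TRF, with 0 members called in each. Over all 13529 probe sets these fits called 1 for TRF against control, 1 for TRF+H2O2+TRF against TRF and 0 for the others. Numbers did not pair the arrays of the 3 comparisons of TRF or TRF+H2O2+TRF with control or H2O2, where equal numbers correlated at -0.224 to 0.541, -0.147 to 0.494 and 0.0216 to 0.327 and were the best match in 3, 3 and 2 of 4 pairs. The block moved the count at an unadjusted p under 0.05 from 12 to 79 in H2O2 against control and from 0 to 2 in TRF+H2O2+TRF against TRF. Without the arrays numbered 5 the medians were 0.135 for H2O2 against control, -0.0672 for TRF against control, -0.216 for TRF+H2O2+TRF against H2O2, -0.0753 against control and -0.146 for the interaction; TRF+H2O2+TRF against TRF holds no such array. In comparisons of 5 arrays with 4 the block gives the same medians, because an array without a partner adds nothing to a blocked difference. Dim and shared probe sets limit what can be said of single genes.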
